A study of Mus musculus with 6 samples.

Results

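The nuclear genes of oxidative phosphorylation were measured in whole mouse retina of 2 genotypes, Unc119+/+ (wild type) and Unc119-/- (called knockout here), with 3 RNA-seq libraries each. Genes were taken by symbol: names that begin with Ndufa, Ndufb, Ndufc, Ndufs or Ndufv, with Uqcr, with Cox4 to Cox8 or with Atp5, and Sdha, Sdhb, Sdhc and Sdhd, kept at a mean of at least 0.5 FPKM (fragments scaled to transcript length and to the fragment total of the library) over the 6 libraries. Of the 24346 symbols in the tables, 92 had such a name and 89 passed the level limit: 45 of complex I, 4 of complex II, 8 of complex III, 15 of complex IV and 17 of complex V. The sources used here do not say how the Unc119 allele was made, how old the mice were, which batches were used or how many mice stand behind a library. The p-values below therefore rest on the scatter among these 6 libraries alone, some of which could be technical.

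The respiratory chain passes electrons from NADH and succinate to oxygen through complexes I to IV of the inner mitochondrial membrane, and complexes I, III and IV pump protons as they do so. Complex V, the ATP synthase, lets the protons flow back and makes ATP. Most subunits are encoded in the nucleus and imported, while a few are encoded by the mitochondrial genome. Photoreceptors pack their inner segments with mitochondria, and the retina is among the tissues with the highest demand for oxygen. UNC119 is a lipid-binding protein abundant in photoreceptors that carries acylated proteins such as transducin to the outer segment. None of the 26 symbols searched for subunits encoded by the mitochondrial genome was in the tables, so these were not analysed here. The FPKM sums below hold no values under those symbols.

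Unc119 itself had levels of 1191, 1187 and 1206 FPKM in wild type and of 510, 460 and 448 FPKM in knockout, 39.6% of the wild-type mean (limma adjusted p = 6.6e-05), and every knockout library lay below every wild-type library. Rod markers summed to between 24211 and 26259 FPKM in wild type and to between 24832 and 26255 FPKM in knockout. Cone markers (8 of 8 in the tables) summed to between 761 and 821 FPKM in wild type and to between 706 and 754 FPKM in knockout, so every knockout library was lower. Microglial markers (8 of 8 in the tables) summed to between 43.6 and 47.5 FPKM in wild type and to between 65.7 and 76.1 FPKM in knockout, so every knockout library was higher. Lens markers (12 of 12 in the tables, none at 0 in all libraries) summed to 131, 686 and 0.591 FPKM in wild type and to 247, 587 and 10190 FPKM in knockout, so knockout replicate 3 stands apart from the other libraries. The part of cones and of microglia in the values of the 89 genes was not tested. Xist and genes of the Y chromosome put 2 wild-type libraries (replicates 1 and 2) and 1 knockout library (replicate 1) with males and the other 3 with females. The total depth is unknown, and the relative depth read from the steps of low values was between 0.763 and 1 of the deepest library.

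The 89 genes were highly expressed in the retina and differed little between the genotypes. Together they held 2.78%, 2.73% and 2.71% of the FPKM sum in wild type and 2.78%, 2.85% and 2.69% in knockout, so the genotypes overlapped. Their summed level was 10610 ± 229 FPKM in wild type and 10880 ± 172 FPKM in knockout (SD, n = 3 each). Of the 89 genes, 60 were among the 1000 highest of the 14176 genes tested, and the median gene stood at percentile 95.3 of mean level. The highest were Atp5b at 584, Ndufa4 at 478, Atp5k at 418, Cox4i1 at 379 and Cox8a at 339 FPKM. A mean of at least 40 FPKM was reached by 72 of the 89. In bulk tissue, fewer cells of a type and less RNA per cell cannot be told apart.

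**Figure D1:**
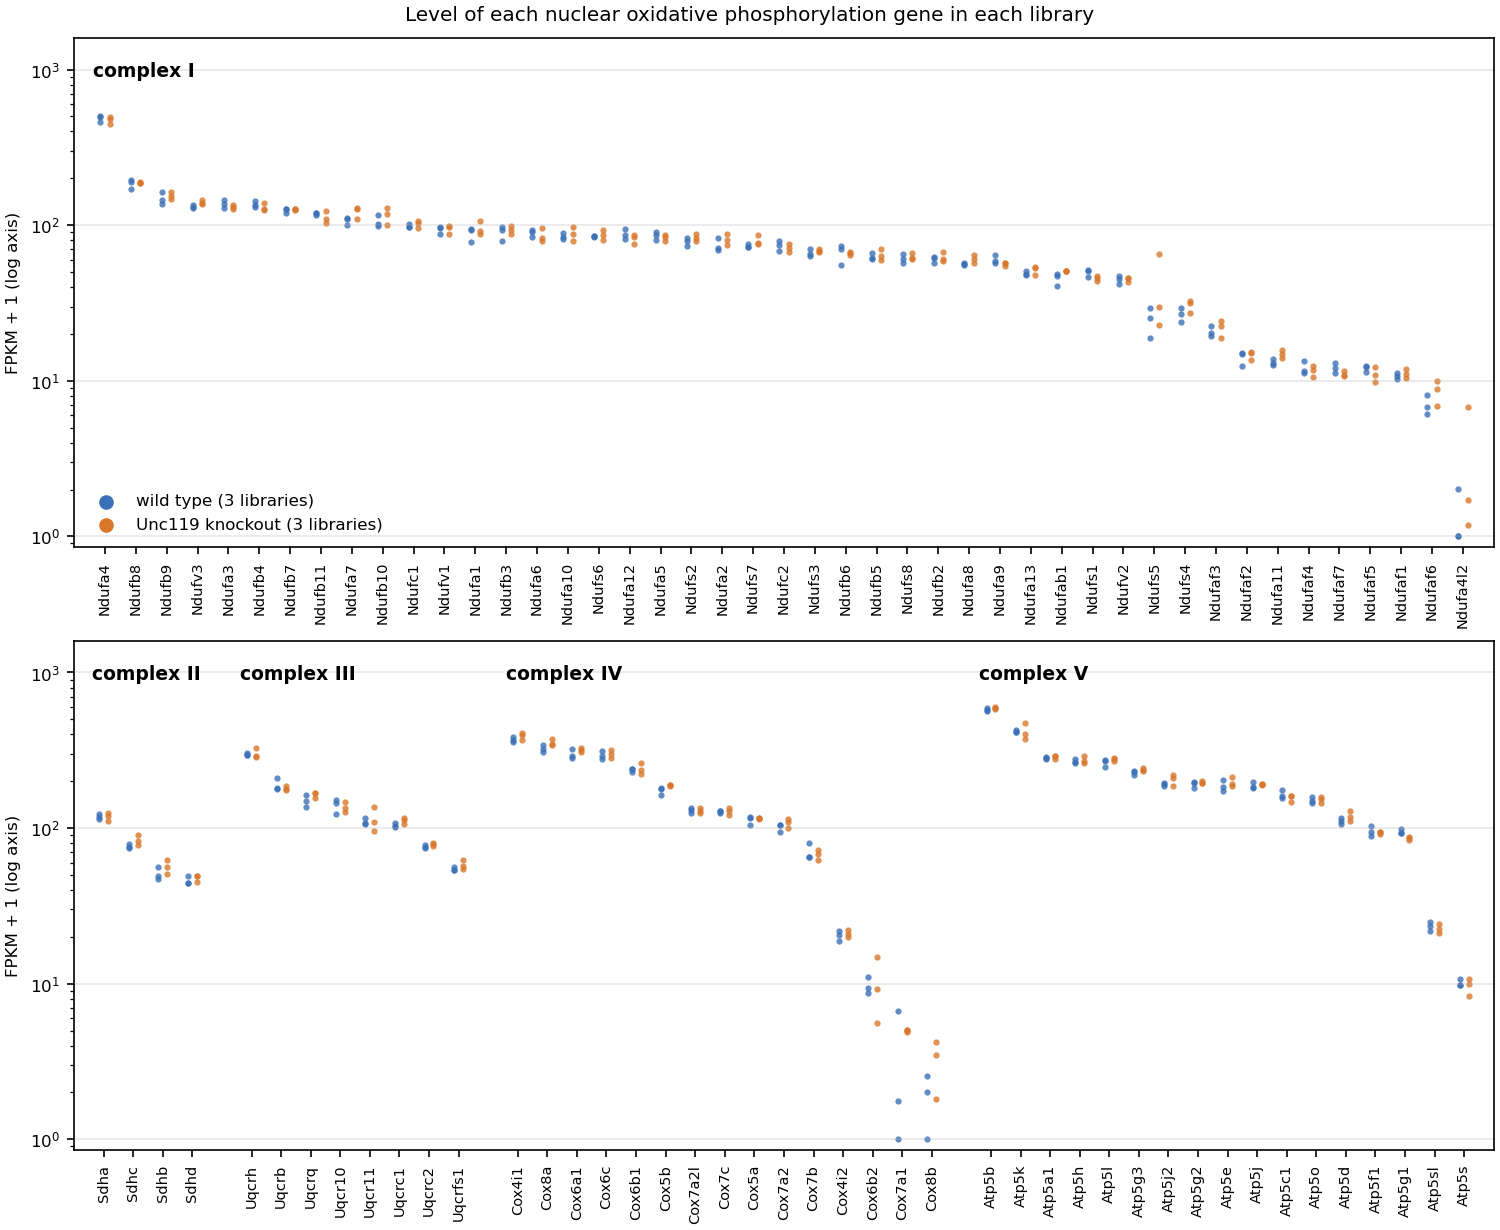
FPKM + 1 on a log axis of each of the 89 genes in each library, grouped by complex and ordered by mean level (blue points, 3 wild-type libraries; orange points, 3 knockout libraries). The blue and orange points of most genes lie on each other, with the widest scatter in Ndufs5 of complex I and in the genes near the floor.

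None of the 89 genes passed the test in either direction (limma on log2(FPKM + 1), adjusted p under 0.05, where all genes tested gave 0.233%, or 0.205% higher and 0.0282% lower). The lowest adjusted p was 0.476, for Atp5g1. At an unadjusted p under 0.05, limma gave 6 of the 89, or 6.74%: Ndufa7, Ndufa11, Ndufab1, Cox5b and Cox8a with positive log2 changes and Atp5g1 with a negative one. The share over all genes tested was 9.0% (5.19% higher, 3.81% lower). The libraries of the genotypes did not overlap in 7 of the 89, or 7.87%, against 15.9% of all genes tested. In 5 of these the knockout was higher (7.83% of all genes tested) and in the other 2, Ndufa9 and Atp5g1, it was lower (8.04% of all genes tested). The counts are small, and no test compared these shares.

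The precision of the data bounds how large an unseen change could be. From a gene's log2 change to either end of its 95% interval, the median distance was 0.144, with a range from 0.0937 to 1.42. For 61 of the 89 genes the whole interval lay within 0.25 of 0 on the log2 scale, and for 83 within 0.5. The 6 genes whose intervals reached past 0.5 were Ndufs5, Ndufaf6, Ndufa4l2, Cox6b2, Cox7a1 and Cox8b, each of which is described with its complex.

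**Figure D2:**
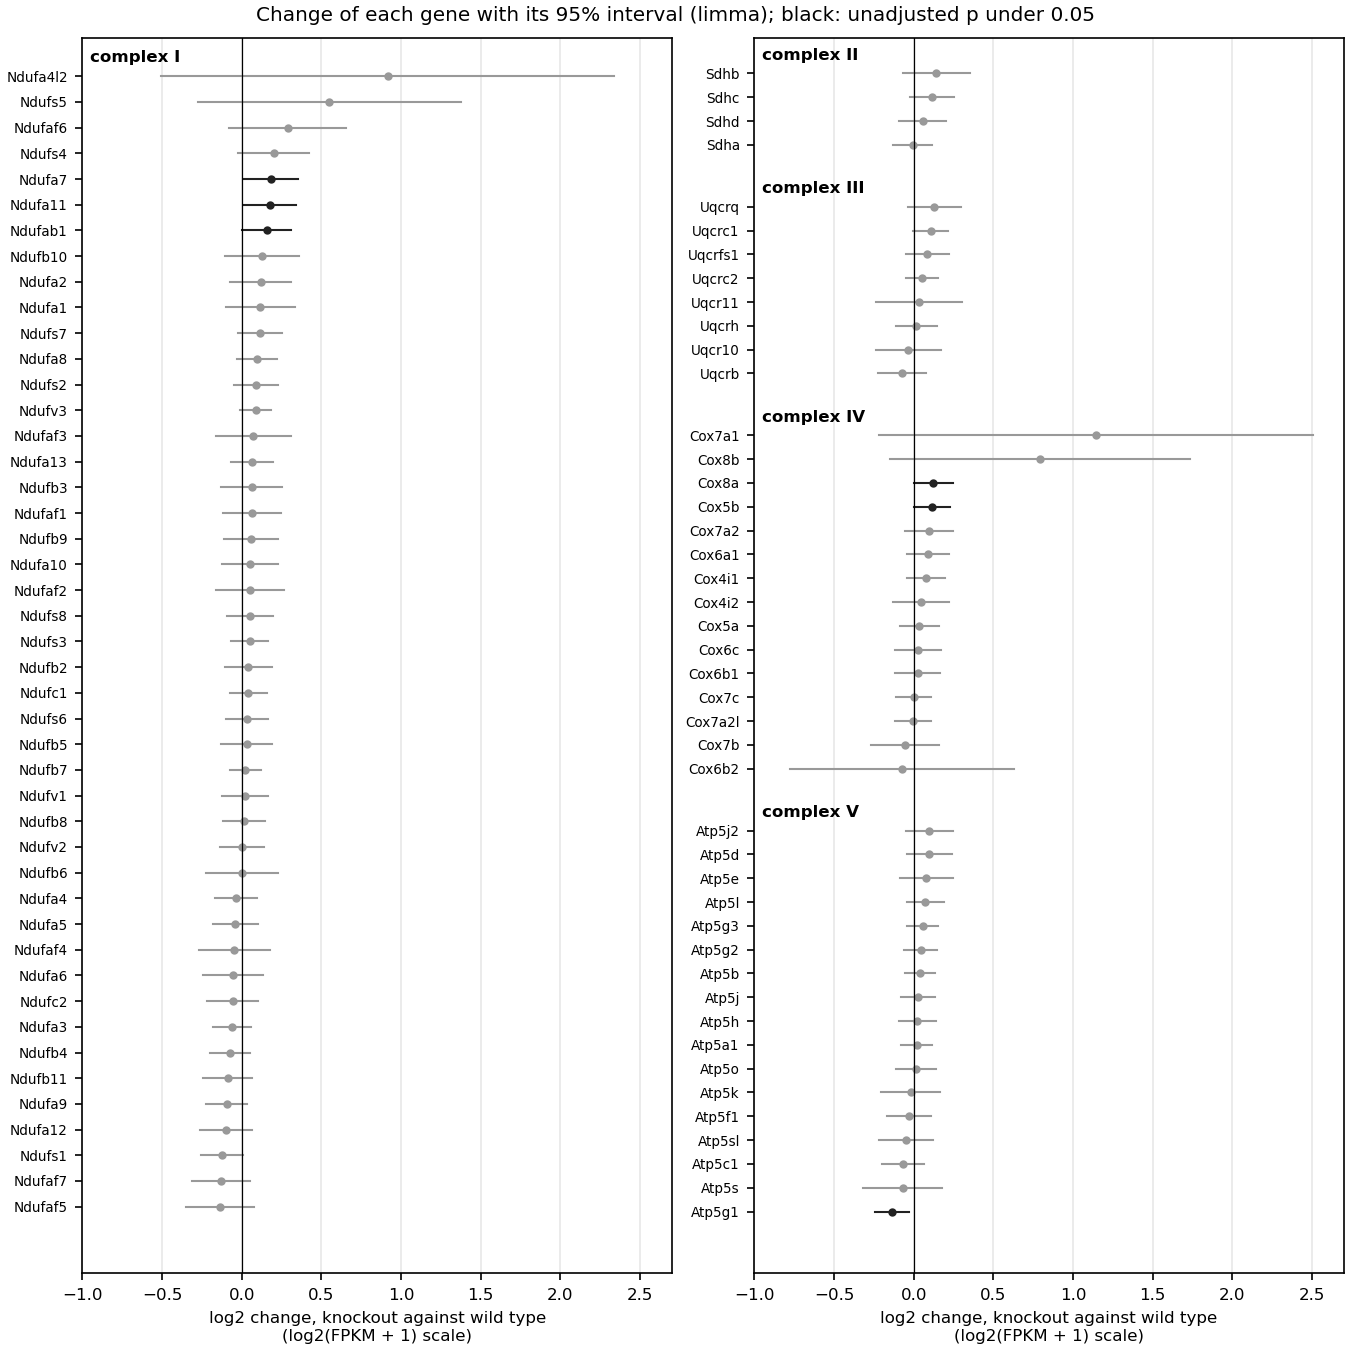
Log2 change of each gene, knockout against wild type on the log2(FPKM + 1) scale, as a point with its 95% limma interval, by complex. Black marks the 6 genes with an unadjusted p under 0.05, and none of the 89 passed the adjusted threshold.

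Most log2 changes were close to 0, and more lay above it than below. The highest were 1.14 for Cox7a1, 0.92 for Ndufa4l2, 0.79 for Cox8b and 0.55 for Ndufs5, and the lowest was -0.14. A change above 0 was found in 64 of the 89 genes (71.9%), against 49.3% of all genes tested and 44.9% of the 8904 other genes in the same range of level. The median log2 change was 0.04, against -0.0017 over all genes tested and -0.01 over the genes of like level. The medians were 0.05 for complex I, 0.09 for complex II, 0.04 for complex III, 0.05 for complex IV and 0.02 for complex V. Under quantile normalization 55 of the 89 were above 0, and with a transcript-length trend taken out of each library 48 were, with a median of 0.0075.

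The libraries of the genotypes overlapped in this shift. Relative to the wild-type mean of each gene, the median log2 deviation of the 89 genes, in the order of the replicate numbers, was 0.04, -0.02 and -0.03 for wild type and 0.02, 0.05 and 0.02 for knockout. Wild-type replicate 1 was thus above 2 of the 3 knockout libraries. Within the libraries from females (1 wild type, 2 knockout) the median log2 change was 0.07 with 67 of 89 above 0, and within those from males (2 wild type, 1 knockout) it was 0.02 with 49 of 89 above 0. The spread within genotypes was near that of other genes: the median SD of log2 values was 0.0830 for the 86 genes of at least 5 FPKM and 0.0881 for the genes of like level.

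The 89 genes are short, with a median transcript of 908 bases against 2998 bases for all genes tested. The shift was compared by length among genes of at least 5 FPKM. Each length is that of 1 annotated transcript per gene, which need not be the model counted. Atp5g1, with 408 coding bases, thus counts as long at 4715 bases. Members and other genes were not matched for length within the groups below. The 29 members with a transcript under 700 bases had a median log2 change of 0.02 and the 57 longer members one of 0.05. In the order of the replicate numbers, the short members had median deviations of 0.01, 0.03 and -0.02 in wild type and 0.007, 0.08 and 0.02 in knockout. The longer members had 0.05, -0.02 and -0.03 in wild type and 0.04, 0.04 and 0.02 in knockout. Among other genes, those under 700 bases had -0.02, 0.05 and 0.01 in knockout, and those of 700 bases or more had -0.002, -0.008 and -0.02. The order of short and long genes thus differed between the knockout libraries, with other short genes lower than other long ones in knockout replicate 1 and higher in the rest.

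**Figure D3:**
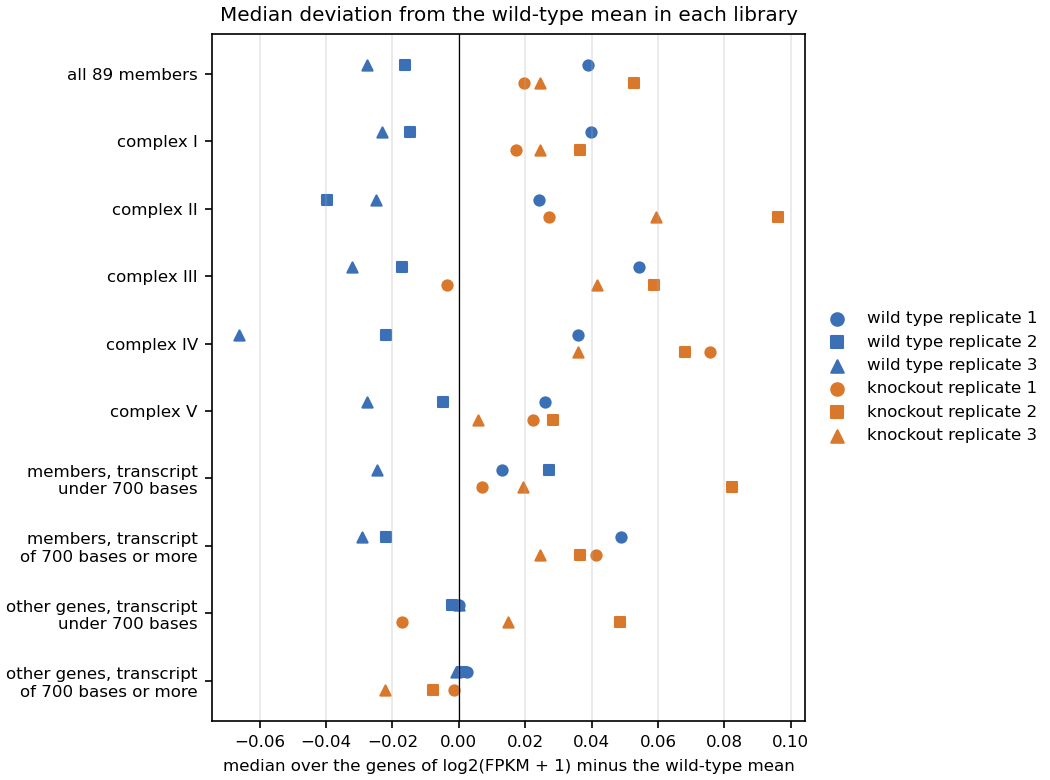
Median over the genes of log2(FPKM + 1) minus each gene's wild-type mean, for each library (blue, wild type; orange, knockout; circles, squares and triangles, replicates 1, 2 and 3), for all members, each complex and groups by transcript length. In the row of all 89 members the wild-type replicate 1 lies among the knockout libraries.

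Complex I, NADH dehydrogenase, takes electrons from NADH, passes them along iron-sulfur clusters to ubiquinone and is the largest complex of the chain. Of its 45 genes, 32 had log2 changes above 0 and none passed the test. Their sum was 3566, 3484 and 3489 FPKM in wild type and 3558, 3640 and 3552 FPKM in knockout, so the libraries overlapped. This sum includes the assembly factors and Ndufa4, which is described below with its place in complex IV. The accessory subunits alone summed to 2510, 2481 and 2473 FPKM in wild type and 2497, 2622 and 2542 FPKM in knockout, also with overlap. The 7 nuclear core subunits, which hold the flavin and the clusters, had mean levels from 43.8 FPKM (Ndufv2) to 93.0 FPKM (Ndufv1), and 6 of them were above 0.

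Among the core subunits, Ndufv1, the subunit that binds NADH and the flavin, was at 94.7, 95.9 and 86.3 FPKM in wild type and 95.8, 87.3 and 98.0 FPKM in knockout (log2 change 0.02, limma 95% interval -0.12 to 0.16). Ndufs7, which carries the last cluster before ubiquinone, was at 74.8, 71.2 and 71.2 FPKM in wild type and 74.9, 75.5 and 85.4 FPKM in knockout. Its libraries did not overlap, but the lowest knockout value lay just above the highest wild-type value (log2 change 0.12, limma adjusted p = 0.611). Ndufs1, the largest core subunit, was at 50.2, 50.02 and 45.5 FPKM in wild type and 46.0, 44.6 and 42.5 FPKM in knockout. It was the core subunit with a change below 0 (log2 change -0.13, interval -0.26 to 0.01), and its libraries overlapped.

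The 29 accessory subunits stabilise the core and form much of the membrane arm. Their levels ran from 13.02 FPKM (Ndufa11) to 185 FPKM (Ndufb8), 21 were above 0, and 3 had an unadjusted p under 0.05. Ndufa11, a membrane-arm subunit, was at 11.6, 12.86 and 12.01 FPKM in wild type and 14.0, 13.05 and 14.7 FPKM in knockout. Every knockout library was above every wild-type library, by as little as 13.05 against 12.86 FPKM. The means were 12.2 ± 0.638 and 13.9 ± 0.806 FPKM (SD, n = 3 each), with a log2 change of 0.18 (SE 0.07, limma adjusted p = 0.524).

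Ndufa7, a subunit of the peripheral arm, was at 99.9, 108 and 111 FPKM in wild type and 108, 129 and 125 FPKM in knockout. Knockout replicate 1 lay within the wild-type range and the other two knockout libraries above it (log2 change 0.18, SE 0.07, limma adjusted p = 0.526). Without that library the log2 change was 0.26, with an adjusted p of 0.366. Ndufab1, the mitochondrial acyl carrier protein, also serves fatty acid and lipoate synthesis. It was at 47.4, 45.8 and 39.8 FPKM in wild type and at 49.4 FPKM in each knockout library (log2 change 0.16, SE 0.07, limma adjusted p = 0.554). The knockout libraries were nearly equal, and the difference was largest against wild-type replicate 3.

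Further accessory subunits show the range of the group: Ndufv3, Ndufa9 and Ndufs4. Ndufv3, a subunit at the tip of the peripheral arm, was at 129, 130 and 134 FPKM in wild type and 136, 144 and 138 FPKM in knockout, without overlap (log2 change 0.09, limma adjusted p = 0.582). Ndufa9, which holds a bound NADPH, was at 63.3, 57.8 and 56.5 FPKM in wild type and 53.5, 56.4 and 56.1 FPKM in knockout. It was the complex I gene whose knockout libraries were all lower (log2 change -0.09, limma adjusted p = 0.646). Ndufs4, whose loss causes a mitochondrial disease, was at 28.3, 22.7 and 25.7 FPKM in wild type and 30.7, 31.5 and 26.3 FPKM in knockout, with overlap (log2 change 0.20, limma adjusted p = 0.582).

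Ndufs5, an accessory subunit on the intermembrane side, gave the widest split between libraries of any complex I gene above 5 FPKM, and its coding sequence has a near copy elsewhere in the genome. Ndufs5 (ENSMUSG00000028648) lies on chromosome 4 at 123712710 to 123718202 of GRCm38, minus strand, and BC002163, annotated as a processed pseudogene, lies on chromosome 16 at 42955631 to 42955949, plus strand. Over the 318 coding bases the sequences differ at 2 positions, T81C and A105G, with the Ndufs5 base first and positions counted from the first base of the start codon, an identity of 99.4%. Coding bases 51 to 150 of both are shown 5′ to 3′ from GENCODE M21 (GRCm38), because a fragment of the coding sequence that misses these 2 positions cannot tell them apart. Capitals mark the differing bases.
Ndufs5: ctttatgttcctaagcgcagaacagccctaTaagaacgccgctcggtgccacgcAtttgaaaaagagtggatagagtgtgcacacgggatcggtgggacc
BC002163: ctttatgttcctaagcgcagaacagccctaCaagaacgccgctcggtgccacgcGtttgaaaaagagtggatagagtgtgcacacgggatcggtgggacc

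Ndufs5 stood at 17.9, 24.5 and 28.5 FPKM in wild type and at 21.8, 64.5 and 28.7 FPKM in knockout. BC002163 stood at 79.4, 77.0 and 82.5 FPKM in wild type and at 77.6, 35.9 and 74.1 FPKM in knockout. Knockout replicate 2 alone had more Ndufs5 than BC002163: Ndufs5 held 64.3% of the pair there and between 18.4% and 27.9% in the other 5 libraries. The sum of the pair hardly moved, at 97.3, 102 and 111 FPKM in wild type and 99.5, 100.4 and 103 FPKM in knockout. FPKM are scaled to transcript length, so this sum and these shares do not count fragments. The log2 change of Ndufs5 was 0.55 (limma 95% interval -0.28 to 1.38, adjusted p = 0.677). It was 0.87 when knockout replicate 1 was left out (limma adjusted p = 0.572), 0.11 when knockout replicate 2 was left out (limma adjusted p = 0.884) and -0.03 for the sum of the pair (limma adjusted p = 0.888). A level of either symbol alone is therefore uncertain.

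**Figure D4:**
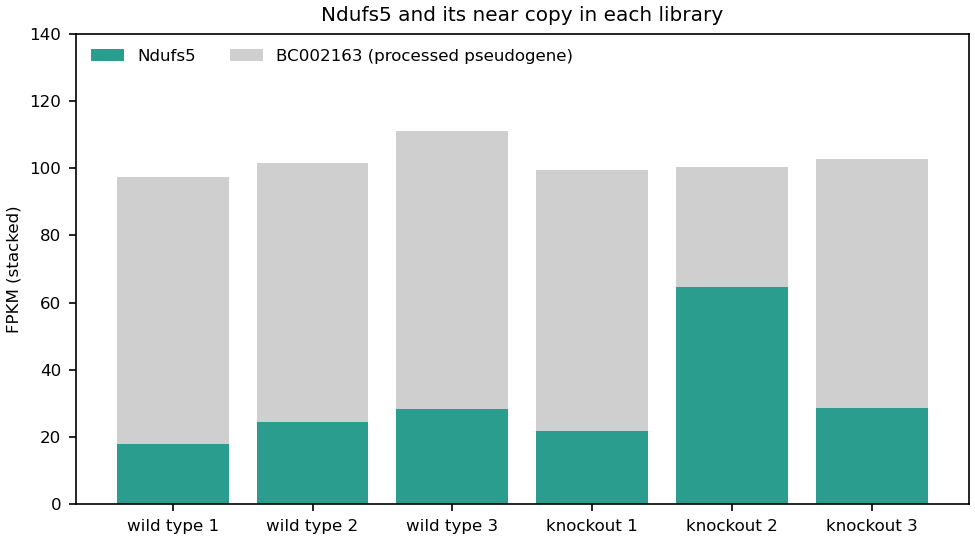
FPKM of Ndufs5 (green) and of its near copy BC002163 (grey), stacked, in each library. The stacks reach between 97.3 and 111 FPKM in all 6 libraries, while the green share is 64.3% in knockout replicate 2 and at most 27.9% elsewhere.

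Near copies were common among the 89 genes. By blastn against GENCODE M21 transcripts, 24 of the 89 had at least 1 other gene of at least 95% identity over at least 50% of the coding sequence, 43 such copies in all, of which 40 were processed pseudogenes. The tables listed 4 of the 43: BC002163, Gm12338 and Gm10012 for Cox7c, and 4930481A15Rik for Uqcr10. Ndufab1, Cox5b and Atp5g1 are among the genes with a copy that has no symbol in the tables, and their levels carry that uncertainty.

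The 7 assembly factors with an Ndufaf name build complex I and are absent from the finished enzyme. They were the lowest group of complex I apart from Ndufa4l2, between 6.77 FPKM (Ndufaf6) and 20.3 FPKM (Ndufaf3), and 4 of the 7 were above 0. Ndufaf6, needed early in assembly, was at 7.04, 5.09 and 5.80 FPKM in wild type and 7.86, 8.96 and 5.87 FPKM in knockout, with overlap (log2 change 0.29, limma 95% interval -0.08 to 0.65). Ndufaf5, which modifies the core subunit NDUFS7, was at 11.4, 11.2 and 10.4 FPKM in wild type and 8.83, 11.2 and 9.85 FPKM in knockout (log2 change -0.14, limma adjusted p = 0.692).

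Ndufa4, despite its name, encodes a subunit found with complex IV. It was at 492, 458 and 500 FPKM in wild type and 494, 477 and 444 FPKM in knockout, with overlapping libraries (log2 change -0.04, limma 95% interval -0.17 to 0.10). Its paralogue Ndufa4l2, known for its induction at low oxygen, stood at 0, 0 and 1.02 FPKM in wild type and at 0.175, 0.702 and 5.76 FPKM in knockout. The highest Ndufa4l2 value was in knockout replicate 3, the library with the highest lens marker sum. The log2 change of Ndufa4l2 was 0.92, against 0.16 without that library, 1.43 without knockout replicate 1 and 0.44 with a term for the lens marker level. The limma 95% interval of that change ran from -0.51 to 2.34, so these data set no useful bound on it.

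Complex II, succinate dehydrogenase, is also an enzyme of the citric acid cycle and has no subunit encoded in mitochondria. Sdha, the flavoprotein that oxidises succinate, was at 123, 114 and 117 FPKM in wild type and 123, 111 and 119 FPKM in knockout (log2 change -0.01, limma 95% interval -0.13 to 0.12). Sdhb, the iron-sulfur subunit, was at 55.2, 46.2 and 48.5 FPKM in wild type and 49.5, 55.4 and 60.9 FPKM in knockout (log2 change 0.14, interval -0.07 to 0.35). Sdhc, a membrane anchor, was at 75.1, 73.9 and 77.9 FPKM in wild type and 88.8, 81.0 and 76.7 FPKM in knockout (log2 change 0.12, interval -0.02 to 0.25). In each of these the libraries overlapped. Sdhd, the other anchor, had a log2 change of 0.06 (limma adjusted p = 0.810). Per kilobase, the mean level of Sdha was 2.24 times that of Sdhb, with a range of 1.95 to 2.49 over the libraries, although the enzyme holds equal numbers of each protein.

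Complex III, the cytochrome bc1 complex, moves electrons from ubiquinol to cytochrome c. Of its 8 genes 6 were above 0. The 3 larger proteins among these 8 were the core subunits Uqcrc1 and Uqcrc2 and the Rieske iron-sulfur protein Uqcrfs1. They summed to 237, 228 and 230.0 FPKM in wild type and 245, 245 and 247 FPKM in knockout. All 3 had changes above 0, of 0.11, 0.05 and 0.09 in that order, with limma adjusted p of 0.573, 0.731 and 0.692. Cytochrome c1 (Cyc1), a further protein of this complex outside the symbols used, had a log2 change of -0.01. Uqcrc1 was at 107, 102 and 101 FPKM in wild type and 112, 106 and 115 FPKM in knockout, so its libraries overlapped by 1 value.

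The 5 small subunits of complex III were higher in level, from 111 FPKM (Uqcr11) to 299 FPKM (Uqcrh), and 3 were above 0. Uqcrh, the hinge protein that helps cytochrome c dock, was at 305, 294 and 292 FPKM in wild type and 286, 325 and 291 FPKM in knockout (log2 change 0.02, limma adjusted p = 0.943). Uqcrb, near the ubiquinone site, was at 209, 181 and 178 FPKM in wild type and 178, 185 and 175 FPKM in knockout (log2 change -0.07, limma adjusted p = 0.753). The high value of wild-type replicate 1 made up most of that difference.

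Complex IV, cytochrome c oxidase, hands the electrons to oxygen. Its catalytic core is encoded in mitochondria, and the nuclear subunits surround it, several of them with isoforms for particular tissues. The sum of its 15 genes was 2328, 2234 and 2221 FPKM in wild type and 2337, 2408 and 2348 FPKM in knockout. Every knockout sum was above every wild-type sum, by as little as 2337 against 2328 FPKM. With Ndufa4 counted in, the sums were 2820, 2692 and 2721 FPKM in wild type and 2831, 2885 and 2792 FPKM in knockout, and the libraries overlapped. The 11 subunits used by most tissues lay between 68.0 FPKM (Cox7b) and 379 FPKM (Cox4i1), and 9 of them were above 0.

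Cox5b, a zinc-binding subunit on the matrix side, was at 178, 180.0 and 163 FPKM in wild type and 189, 186 and 187 FPKM in knockout. All knockout libraries were higher, and wild-type replicate 3 was the lowest by the widest gap (173 ± 9.44 against 188 ± 1.23 FPKM, SD, n = 3 each; log2 change 0.11, SE 0.05, limma adjusted p = 0.551). Cox8a, the form of the smallest subunit found in most tissues, was at 321, 342 and 309 FPKM in wild type and 341, 370.0 and 348 FPKM in knockout, with overlap by 1 value (log2 change 0.12, SE 0.05, limma adjusted p = 0.552). Cox4i1, the general form of the regulatory subunit 4, was at 368, 354 and 382 FPKM in wild type and 395, 368 and 405 FPKM in knockout (log2 change 0.08, limma 95% interval -0.04 to 0.20). Cox7a2l, a factor for joining complexes III and IV, was at 130.0, 124 and 134 FPKM in wild type and 124, 134 and 128 FPKM in knockout (log2 change 0.00, limma 95% interval -0.11 to 0.11).

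**Figure D5:**
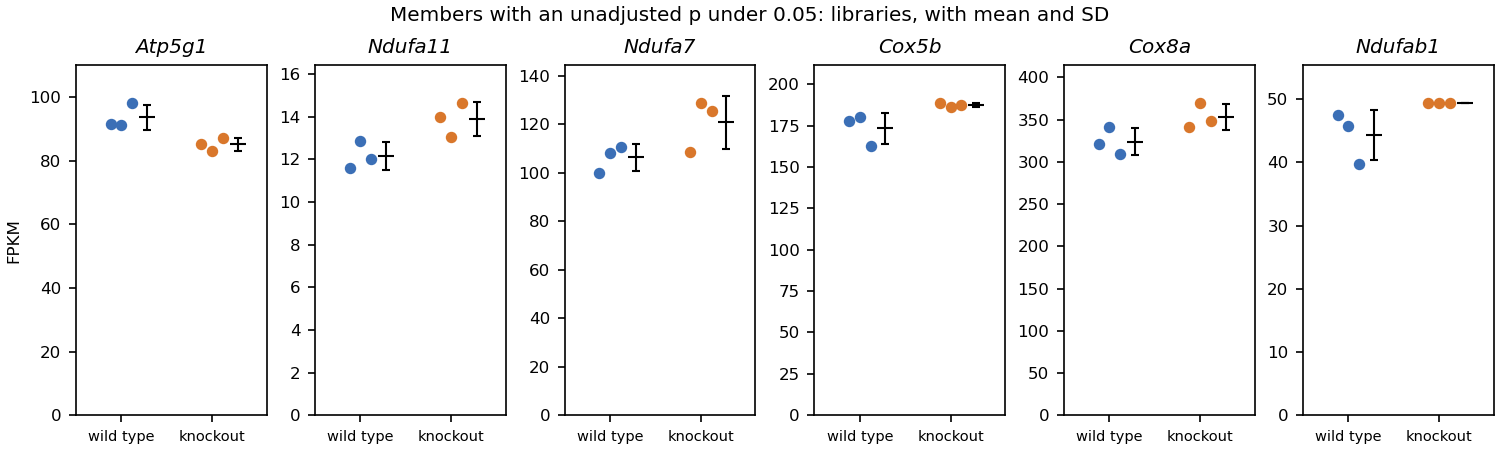
FPKM in each library (blue, wild type; orange, knockout) with the mean and SD of each genotype as a bar, for the 6 genes with an unadjusted limma p under 0.05. Each axis starts at 0, and the libraries of Ndufa7 and Cox8a overlap while those of the other 4 genes do not.

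The tissue isoforms of complex IV were low. Cox4i2, the lung form of subunit 4, was at 20.8, 19.7 and 17.7 FPKM in wild type and 21.3, 19.9 and 18.9 FPKM in knockout, and Cox4i1 was 19.2 times as high (17.7 to 21.6 over the libraries). Cox6b2, the testis form of subunit 6b, was at 8.40, 9.96 and 7.72 FPKM in wild type and 8.30, 4.61 and 13.7 FPKM in knockout, and Cox6b1 was 27.1 times as high (16.2 to 56.9). The knockout values of Cox6b2 lay both below and above all wild-type values (log2 change -0.08, limma 95% interval -0.78 to 0.63).

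Cox7a1 and Cox8b, the heart and skeletal muscle forms of subunits 7a and 8, had the highest log2 changes of complex IV and rest on values near 0. Cox7a1 had values of 0, 0.757 and 5.64 FPKM in wild type and of 4.04, 4.06 and 3.92 FPKM in knockout. Cox8b had values of 1.009, 1.54 and 0 FPKM in wild type and of 0.824, 2.48 and 3.196 FPKM in knockout. In both the genotypes overlapped, with log2 changes of 1.14 (limma 95% interval -0.22 to 2.50) and 0.79 (-0.15 to 1.73). Without wild-type replicate 3 the Cox7a1 libraries no longer overlapped, at a log2 change of 1.92 (limma adjusted p = 0.0787), and without wild-type replicate 1 the change was 0.55. For Cox8b it was 0.40 without wild-type replicate 3 and 0.04 with a term for the lens marker level. With 0.1 or 5 added to the FPKM in place of 1, the changes were 2.38 or 0.42 for Cox7a1 and 1.81 or 0.29 for Cox8b. Markers of skeletal muscle (6 of 6 in the tables, 2 with a mean of at least 0.5 FPKM) summed to between 6.45 and 9.99 FPKM in wild type and to between 4.58 and 9.38 FPKM in knockout, and the part of muscle in these values was not tested. The 3 symbols under the level limit were also of complex IV: Cox6a2, a muscle form, had a mean of 0.105 FPKM, Cox7b2 had 0.131 FPKM, all of it in knockout replicate 2, and Cox8c was listed at 0 in every library. Just inside the limit were Ndufa4l2 at 1.28, Cox8b at 1.51 and Cox7a1 at 3.07 FPKM.

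The promoters of Cox8a and Cox8b are shown as the general and the muscle form of the same subunit. Windows of 250 bases before to 50 bases after the start site came from RefSeq (GRCm38.p6) and were searched on both strands for 4 motifs of factors known from respiratory gene promoters: GCGCA and GCGC with any 1 base between them for NRF1, CCGGAAG for the ETS family that includes GABP, AAGATGGCG for YY1 and TCAAGGTCA for the ERR receptors. The Cox8a window, chr19:7217567-7217866 on the minus strand, held the ETS motif 2 times, shown in capitals on the opposite strand. The Cox8b window, chr7:140900397-140900696 on the minus strand, held none of the 4. This contrast does not mark the classes: the windows of the general forms Cox5a, Cox5b, Cox7a2, Cox7a2l, Cox7b and Cox7c and of the tissue forms Cox6b2 and Cox7a1 also held none, and those of Cox6a1 and Cox6b1 held at least 1.
Cox8a: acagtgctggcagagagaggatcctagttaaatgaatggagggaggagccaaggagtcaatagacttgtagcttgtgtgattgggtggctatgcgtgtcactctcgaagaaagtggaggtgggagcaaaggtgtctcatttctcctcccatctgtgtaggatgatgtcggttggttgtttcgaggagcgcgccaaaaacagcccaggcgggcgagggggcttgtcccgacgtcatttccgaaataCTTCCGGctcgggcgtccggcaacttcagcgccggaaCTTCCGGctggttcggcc
Cox8b: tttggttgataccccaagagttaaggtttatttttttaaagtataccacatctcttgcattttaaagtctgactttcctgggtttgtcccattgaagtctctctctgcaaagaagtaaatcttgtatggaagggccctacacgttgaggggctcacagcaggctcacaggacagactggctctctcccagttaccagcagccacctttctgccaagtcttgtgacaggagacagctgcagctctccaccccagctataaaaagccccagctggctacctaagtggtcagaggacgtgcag

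Of the 89 genes 73 had at least 1 window, 79 windows in all. The NRF1 letters were in 20 of the 79 windows (25.3%), against 4.6% of all 32851 mouse windows and 9.08% of 13622 windows of the other genes tested. The ETS letters were in 17 (21.5%, against 8.86% and 15.7%), those of YY1 in 9 (11.4%, against 1.4% and 2.66%) and those of ERR in 2 (2.53%, against 0.423% and 0.257%). At least 1 of the first 3 was in 40 windows (50.6%, against 13.6% and 24.8%). A match of letters is not a bound site, and no binding was measured.

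Complex V, the ATP synthase, turns its ring of c subunits with the proton flow and makes ATP in a head of alpha and beta subunits. Of its 17 genes 11 were above 0, and their sum was 3500, 3425 and 3360 FPKM in wild type and 3455, 3587 and 3445 FPKM in knockout. Atp5b, the catalytic beta subunit, was the highest of the 89 genes, at 590, 574 and 565 FPKM in wild type and 591, 585 and 601 FPKM in knockout (log2 change 0.04, limma 95% interval -0.05 to 0.13). Atp5a1, the alpha subunit, was at 287, 281 and 277 FPKM in wild type and 290, 275 and 291 FPKM in knockout (log2 change 0.02, interval -0.08 to 0.11). The libraries of both genes overlapped, and both intervals lay within 0.25 of 0.

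Within the head, transcript levels per kilobase of the alpha and beta subunits did not follow the numbers of the proteins. Atp5b was 2.06 times Atp5a1 (2.04 to 2.13 over the libraries), although alpha and beta subunits alternate in the head in equal number. It was 3.67 times Atp5c1, the central stalk subunit gamma, and 5.13 times Atp5d, the subunit delta. No comparison with protein numbers was made for these ratios. Atp5c1 was at 174, 160 and 156 FPKM in wild type and 159, 160 and 147 FPKM in knockout (log2 change -0.07, limma adjusted p = 0.738). Atp5d was at 110, 115 and 105 FPKM in wild type and 110, 117 and 127 FPKM in knockout (log2 change 0.10, limma adjusted p = 0.665).

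The c subunit is made from 3 genes, Atp5g1, Atp5g2 and Atp5g3, whose imported proteins mature to the same subunit. Atp5g1 (ENSMUSG00000006057, chromosome 11 at 96068852 to 96075670 of GRCm38, minus strand) had the lowest p of the 89 genes. It was at 91.6, 91.4 and 98.3 FPKM in wild type and 85.3, 83.2 and 87.1 FPKM in knockout, so every knockout library was lower. The means were 93.8 ± 3.92 and 85.2 ± 1.95 FPKM (SD, n = 3 each), a log2 change of -0.14 (SE 0.05, limma 95% interval -0.24 to -0.03, unadjusted p = 0.0189, adjusted p = 0.476).

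The other two c genes were higher in level and had changes of the other sign. Atp5g2 was at 196, 193 and 181 FPKM in wild type and 199, 193 and 194 FPKM in knockout (log2 change 0.04, limma adjusted p = 0.792). Atp5g3 was at 229, 219 and 231 FPKM in wild type and 241, 231 and 234 FPKM in knockout (log2 change 0.06, limma adjusted p = 0.705), and its mean was 2.58 times that of Atp5g1. The sum of the 3 genes was 517, 503 and 509.8 FPKM in wild type and 526, 507 and 515 FPKM in knockout, so the total for the c subunit overlapped between genotypes (509.9 ± 6.63 against 516 ± 9.35 FPKM, SD, n = 3 each).

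The promoters of the 3 c genes are printed because these separate genes give the same mature subunit. They lie at chr11:96075582-96075881 (Atp5g1), chr15:102670998-102671297 (Atp5g2) and chr2:73911277-73911576 (Atp5g3) of GRCm38.p6, all on the minus strand, and capitals mark the NRF1 letters and, in Atp5g3 before them, the ERR letters on the opposite strand. The Atp5g1 window held none of the 4 motifs.
Atp5g1: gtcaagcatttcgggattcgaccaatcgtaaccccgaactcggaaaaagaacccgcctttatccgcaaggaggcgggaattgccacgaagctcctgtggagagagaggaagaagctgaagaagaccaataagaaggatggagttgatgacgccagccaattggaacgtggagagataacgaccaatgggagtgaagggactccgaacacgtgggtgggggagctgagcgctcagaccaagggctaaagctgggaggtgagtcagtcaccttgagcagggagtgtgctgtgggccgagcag
Atp5g2: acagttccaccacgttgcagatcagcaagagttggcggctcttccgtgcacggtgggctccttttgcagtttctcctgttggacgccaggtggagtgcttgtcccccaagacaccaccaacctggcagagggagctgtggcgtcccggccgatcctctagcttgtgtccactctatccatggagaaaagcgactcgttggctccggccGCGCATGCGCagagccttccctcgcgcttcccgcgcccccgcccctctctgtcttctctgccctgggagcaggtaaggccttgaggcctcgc
Atp5g3: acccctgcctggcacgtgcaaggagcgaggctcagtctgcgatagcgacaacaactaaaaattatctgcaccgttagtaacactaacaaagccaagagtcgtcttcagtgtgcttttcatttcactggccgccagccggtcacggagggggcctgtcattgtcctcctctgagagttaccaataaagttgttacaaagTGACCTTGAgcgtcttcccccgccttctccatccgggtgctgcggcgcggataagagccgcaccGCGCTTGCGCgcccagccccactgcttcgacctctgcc

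The 4 genes of the peripheral stalk, which keeps the head from turning with the ring (Atp5f1, Atp5h, Atp5j and Atp5o), had log2 changes from -0.03 to 0.03. Among the members, 3 were small membrane subunits of the synthase. Of these, Atp5k, which joins ATP synthases into dimers, was at 416, 427 and 414 FPKM in wild type and 401, 472 and 374 FPKM in knockout. Its knockout libraries lay both above and below all wild-type ones (log2 change -0.02, limma 95% interval -0.20 to 0.17). Atp5s and Atp5sl are named for the synthase but encode no subunit of it. They were at 8.90 and 22.0 FPKM, the lowest of the group, with log2 changes of -0.07 and -0.05.

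Genes around the chain were taken in lists by function, and limma called none of them at an adjusted p under 0.05. At an unadjusted p under 0.05 were Slc25a4 and Chchd3 with positive and Polg2, Suclg1, Ckmt1 and Kif5a with negative log2 changes. Over all genes tested, 9.0% had such a p (5.19% higher, 3.81% lower), and no test compared the lists with that share. Of 9 complex I assembly factors with other names 6 were above 0 (median log2 change 0.03). The counts were 5 of 10 for assembly factors of complexes II and III (0.02) and 7 of 22 for those of complex IV (-0.06). A list for complex V gave 5 of 6 (0.03) and mixes assembly and inhibition genes with synthase subunits whose names fall outside the symbols used. Its gene below 0 was such a subunit, Usmg5 (log2 change -0.13, limma adjusted p = 0.573). Among electron carriers and ubiquinone synthesis 6 of 19 were above 0 (-0.03), and in the citric acid cycle 6 of 13 (0.00). Adenine nucleotide and phosphate carriers, listed together with the Vdac channels and creatine kinases, gave 4 of 8 (0.01). Import and inner membrane organisation gave 11 of 28 (-0.02), and fission, fusion and removal 8 of 17 (0.00).

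The most abundant gene of most lists was close to level between the genotypes. Ckb, the cytosolic creatine kinase, had a mean of 722 FPKM and a log2 change of 0.03 (limma adjusted p = 0.890). Mdh2, the malate dehydrogenase of the citric acid cycle, had 179 FPKM and 0.02 (limma adjusted p = 0.926). Fis1, a fission factor, and Timm8b, an import chaperone, had 93.9 and 103 FPKM with log2 changes of 0.04 and -0.01. Cox20, an assembly factor of complex IV, was at 115, 139 and 96.8 FPKM in wild type and 97.9, 97.2 and 102 FPKM in knockout, with overlap and the widest scatter in wild type (log2 change -0.225, limma adjusted p = 0.607). Esrrb, an ERR receptor and the highest of the biogenesis regulators listed, was at 104, 90.8 and 115 FPKM in wild type and 82.0, 87.6 and 98.3 FPKM in knockout, also with overlap (log2 change -0.21, limma adjusted p = 0.574).

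Regulators of mitochondrial biogenesis had 8 of 19 above 0 and a median log2 change of -0.05. Ppargc1a, the coactivator of respiratory genes, was at 12.4, 11.7 and 11.7 FPKM in wild type and 11.8, 11.98 and 10.7 FPKM in knockout (log2 change -0.05, limma adjusted p = 0.850). Nrf1, the factor of the motif above, and Tfam, which activates the mitochondrial genome, each had a log2 change of -0.05 (limma adjusted p of 0.903 and 0.906). Esrra, an ERR receptor, was at 12.4, 12.7 and 12.4 FPKM in wild type and 13.8, 13.04 and 14.7 FPKM in knockout. Its libraries did not overlap (log2 change 0.14, limma adjusted p = 0.586). The share without overlap was 10.5% of the 19 regulators, against 15.9% of all genes tested.

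The related gene with the lowest p was Polg2, the accessory subunit of the mitochondrial DNA polymerase, named after its values were seen. It was at 41.0, 38.6 and 40.2 FPKM in wild type and 34.4, 32.8 and 32.4 FPKM in knockout, without overlap (log2 change -0.26, SE 0.05, limma adjusted p = 0.173). Slc25a4, an ADP/ATP carrier for the product of complex V, was at 434, 420.0 and 396 FPKM in wild type and 449, 451 and 464 FPKM in knockout. Its libraries again did not overlap (log2 change 0.13, SE 0.05, limma adjusted p = 0.499). Slc25a5, another ADP/ATP carrier, was at 244, 236 and 238 FPKM in wild type and 224, 231.5 and 229 FPKM in knockout. Every knockout library of Slc25a5 was lower (log2 change -0.07, limma adjusted p = 0.635). Cytochrome c itself (Cycs) and cytochrome c1 of complex III (Cyc1), whose name falls outside the symbols used, had log2 changes of -0.04 and -0.01.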

How the data were processed

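The authors deposited 1 table of FPKM per gene for each of 6 retina libraries. The submitters' processing notes name TopHat2 2.1.1, Cuffdiff 2.2.1 and the mouse build mm10. Per the labels, TRIzol was used for extraction and a stranded mRNA kit for the libraries. The sources used here do not name the gene models counted or say whether strand was used.

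Genes with a mean of at least 0.5 FPKM (14176) were fitted with limma 3.58.1 (R 4.3.3) on log2(FPKM + 1), knockout against wild type, with a mean-variance trend, two-sided, and Benjamini-Hochberg adjustment over all of them. The added 1 understates the change of low genes. An exact permutation test of 3 against 3 libraries cannot go below p = 0.1 and was not used. Positions and transcript lengths came from GENCODE M21 (GRCm38), near copies from blastn 2.17.0, and promoters from RefSeq (GRCm38.p6).

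The members and lists were chosen with earlier results of these data known. Named are the genes with the lowest p and the highest levels per complex or list, tissue isoforms, and genes set by role. Other named genes show their group's range and were picked after their values were seen.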

Additional observations from a re-analysis of the deposited data

How the results depend on the processing

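None of the 89 genes passed the test in either direction under any of the 20 alternatives that fitted it. These were other pseudocounts, filters, scalings and variance models, library weights, terms for sex and for the lens marker level, a replicate block, leaving out each library, and 2 added after seeing the data, the summed Ndufs5 pair and the removal of a length trend. Among the 38 named members, 757 values under alternatives held no call and a lowest adjusted p of 0.0787 (Cox7a1 without wild-type replicate 3), and 37 of these values, in 16 members, had the other sign. The median log2 change of the 89 genes, 0.04, stayed above 0 and within 1 SD of the library medians (0.0282) except with the length trend removed, where it was 0.0075. Leaving out 1 library gave medians from 0.026 to 0.058. The stricter filter, a mean of at least 5 FPKM, fitted 86 of the 89 genes, without Ndufa4l2, Cox8b and Cox7a1.

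The labels number the libraries 1 to 3 in both genotypes without saying that a number pairs them. Deviations of same-numbered libraries correlated at 0.07, -0.09 and -0.12 across genes, and those of unlike-numbered libraries at between -0.08 and 0.17. Each deviation is from a mean of only 3 libraries, so this check cannot decide whether a number marks a pair. With the replicate block the median stayed at 0.04 and 0 genes passed. The FPKM tables give no depth, so no counting interval could be set.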

Other observations

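Of the 89 genes, 3 lie on the X chromosome, where the libraries differ by sex as well as by genotype. Ndufa1, a membrane-arm subunit of complex I, stood at 76.7, 91.5 and 93.0 FPKM in wild type and at 87.3, 90.9 and 105 FPKM in knockout. Ndufb11, of the same arm, was at 119, 116 and 118 FPKM in wild type and at 102, 122 and 109 FPKM in knockout. Cox7b, a small subunit of complex IV, was at 79.4, 64.2 and 64.7 FPKM in wild type and at 61.3, 71.1 and 67.2 FPKM in knockout. In each gene the libraries of the genotypes overlapped, and so did those from males and from females.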
